A study of Homo sapiens with 6 samples.

Results

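The HOXA cluster on chromosome 7 and the lncRNA *HOTTIP* beside it were examined in SEM cells that carried either wild-type CTCF or CTCF without its RNA-binding region (RBR). The genes were *HOXA3*, *HOXA4*, *HOXA5*, *HOXA6*, *HOXA7*, *HOXA9*, *HOXA10*, *HOXA11*, *HOXA13* and *HOTTIP*, found by symbol in the deposited tables, where each had 1 entry. They were 10 of 57820 genes listed. SEM is an established line of B-cell acute lymphoblastic leukemia that carries a fusion of *KMT2A* and *AFF1*. Total RNA was sequenced in 3 CTCF-WT libraries, from CTCF AID2/WT cells, and in 3 CTCF-dRBR libraries, from CTCF AID2/dRBR cells. In both groups the endogenous CTCF carried a miniAID-mClover3 tag at its C-terminus and the cells expressed OsTIR1(F74G) throughout, so that the auxin analog 5-Ph-IAA led to degradation of the tagged protein. 5-Ph-IAA was present for 24 h in both groups. After 6 h, 1 µg/mL doxycycline was added for the remaining 18 h to induce an HA-tagged transgene, wild-type CTCF in CTCF-WT and CTCF lacking the RBR in CTCF-dRBR. The genotype label of the CTCF-WT libraries names the tagged CTCF without a transgene, and their titles placed them in the group. The labels do not say whether replicates were separate cultures, so the p-values measure the spread between these libraries, which may be technical.

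HOX genes encode homeodomain transcription factors, and in the embryo they are switched on in their order along the chromosome to give cells along the body axis their identity. In blood, the middle of the HOXA cluster is active in stem and progenitor cells and is silenced as cells mature. *KMT2A* fusions keep these genes active in leukemia, where *HOXA9* and *HOXA10* act together with the TALE homeodomain cofactor *MEIS1*. CTCF binds at sites within the cluster, among them the stretch between *HOXA7* and *HOXA9*, which can separate active from silent chromatin. *HOTTIP* is transcribed from the far end of the cluster, next to *HOXA13*, and its RNA is known to bind WDR5, a subunit of KMT2A complexes.

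The 10 genes lie on chromosome 7 of GRCh37 between 27145803 and 27246878, in the order given above. *HOTTIP* is on the plus strand and the other 9 are on the minus strand, so that *HOXA3* lies at the 3′ end of the group and *HOXA13* at the 5′ end of its HOX genes. Because the study changed CTCF, the sequence was searched for a CTCF core, spelled as CCA, any 2 bases, AG, any 2 bases and GGC, on both strands. The 101076 bases from *HOXA3* to *HOTTIP* held 8 matches, or 7.91 per 100 kb, against 2.66 per 100 kb of chromosome 7. These rates were not matched for GC content or promoter density, and their difference was not tested. Each match is shown 5′ to 3′ on the strand of the motif, with the 12 bases of the match in capitals and 9 bases on either side. A match describes the letters and does not show that CTCF was bound.
Between *HOXA7* and *HOXA9*, minus strand, chr7:27199899-27199910: ggcgttcacCCATCAGGAGGCcagaaggga
Between *HOXA7* and *HOXA9*, minus strand, chr7:27200757-27200768: aaacggcggCCAGCAGATGGCagtgtggct
Intron of *HOXA3*, plus strand, chr7:27179318-27179329: ccgcgacccCCAGGAGCTGGCcccggccgg
Exon of *HOXA6*, minus strand, chr7:27190140-27190151: gctttggctCCAGGAGAGGGCtgtgaaggg
Exon of *HOXA10*, plus strand, chr7:27211388-27211399: tgtaacggcCCAGGAGATGGCgagtgtggg
Exon of *HOXA10*, minus strand, chr7:27219525-27219536: gcgcagccgCCACGAGATGGCgcacttccg
Between *HOXA11* and *HOXA13*, minus strand, chr7:27232185-27232196: gagtggtacCCAGGAGCTGGCtgagggcgg
Exon of *HOTTIP*, plus strand, chr7:27242036-27242047: ggggagcccCCACTAGCCGGCgcctgtgcc
The interval between *HOXA7* and *HOXA9* spans 4501 bases and held 2 of the 8 matches. They lie 2343 and 3201 bases from the 5′ end of *HOXA7*, and 2146 and 1288 bases from the 3′ end of *HOXA9*. In RefSeq promoter windows, from 250 bases before to 50 bases after a start, the core was found in 2.41% of 35116 windows. Windows were found for 9 of the 10 genes, and a window of *HOXA10* was the only one of theirs with a match, the one at 27219525 above.

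*HOXA9* was the most abundant of these genes, so the 250 bases before its RefSeq start are shown, chr7:27205157-27205406, minus strand, placed on GRCh37 by an exact match. The capitals mark TGATTTA, the letters that PBX and HOX9-class proteins are known to bind as a pair, and the palindrome CACGTG, an E-box. Of all RefSeq promoter windows, 2.89% held TGATTTA and 7.26% held CACGTG on either strand. The first was found in no other window of these genes, and the second also in those of *HOXA3*, *HOXA4* and *HOXA7*.
*HOXA9* upstream: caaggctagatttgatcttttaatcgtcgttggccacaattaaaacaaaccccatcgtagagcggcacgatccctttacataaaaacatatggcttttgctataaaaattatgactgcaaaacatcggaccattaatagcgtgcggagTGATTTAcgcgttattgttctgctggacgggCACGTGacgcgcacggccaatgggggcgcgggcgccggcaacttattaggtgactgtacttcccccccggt

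Total estimated counts were between 51732177 and 53166735 in CTCF-WT and between 30034505 and 50457168 in CTCF-dRBR. CTCF-dRBR replicate 1 was the smallest library and stood apart from the other 5. Its lowest and highest Spearman's rho of log2 CPM with another library were 0.912 and 0.969. The signed deviation of a library's log2 CPM from the 6-library mean also followed gene GC content. Its rho across genes ranged from −0.78 in CTCF-dRBR replicate 1 to 0.709 in CTCF-WT replicate 1. Results were therefore also computed without CTCF-dRBR replicate 1 and after removal of the GC trend. Of the 7 B-lineage markers examined, 6 were expressed highly enough to be tested, *CD79A* and *PAX5* among them, and *DNTT* was not. The summed level of the 7 was 739.8 to 870.1 CPM in CTCF-WT and 522 to 848 CPM in CTCF-dRBR. T-cell markers summed to at most 0.602 CPM in any library and erythroid markers to at most 0.1 CPM, and the granulocyte gene *ELANE* had 0 counts throughout. Myeloid markers summed to 7.76 to 13.2 CPM, mostly from *LYZ* and *CSF1R*. Fibroblast markers reached at most 1.07 CPM and epithelial markers 0.368 CPM.

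Among the 10 genes, those from *HOXA3* to *HOXA10* were expressed above trace level. In bulk RNA, fewer expressing cells and less RNA per cell cannot be told apart. On the scale of TPM, which is normalized to gene length and library, the mean in CTCF-WT was highest for *HOXA9*, at 35.2 ± 13.6 (SD, n = 3). *HOXA10* followed with 19.3 ± 6.46 TPM and *HOXA7* with 9.72 ± 1.77 TPM. *HOXA5* had 4.09 ± 0.823 TPM, *HOXA6* 2.39 ± 0.265, *HOXA3* 0.74 ± 0.205 and *HOXA4* 0.567 ± 0.0833. The order *HOXA9*, *HOXA10*, *HOXA7*, *HOXA5* and *HOXA6* held in all 6 libraries. *HOXA3* and *HOXA4* could not be ordered, since each was the higher in 3 of the 6 libraries. *HOXA6* was above *HOXA3* in 5 of them, the exception being CTCF-dRBR replicate 1. In CTCF-dRBR the means were 53.2 ± 19.8 TPM for *HOXA9*, 20.2 ± 5.54 for *HOXA10* and 7.71 ± 0.712 for *HOXA7*.

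The 5′ end of the cluster was close to silent. *HOXA11*, which patterns limb and uterus, had between 1 and 9 counts in a library, and its groups overlapped. *HOXA13*, the last gene of the cluster and a regulator of distal limb and genital development, had 9, 19 and 8 counts in CTCF-WT replicates 1, 2 and 3, and 15, 13 and 11 counts in CTCF-dRBR replicates 1, 2 and 3. *HOTTIP* had 17, 17 and 20 counts in CTCF-WT and 15, 15 and 25 counts in CTCF-dRBR. Divided by TMM-scaled library size, *HOTTIP* was at 0.352 ± 0.0236 CPM (SD, n = 3) for CTCF-WT against 0.426 ± 0.117 CPM for CTCF-dRBR (two-sided exact permutation p = 0.4). The same exact permutation test gave p = 0.5 for *HOXA13* and p = 0.9 for *HOXA11*, where 3 libraries against 3 cannot go below 0.1. All 3 genes were under 1 CPM in every library and were removed before the test across genes. Fitted without the filter on low counts, the log2 fold change was 0.14 for *HOTTIP* (SE 0.36, limma-voom adjusted p = 0.835) and 0.32 for *HOXA13* (SE 0.49, limma-voom adjusted p = 0.753), where the median of all genes was 0.19. For *HOXA11* it was −0.49 (SE 0.74, limma-voom adjusted p = 0.751). Small changes in these genes were not detectable at this depth. An observed count of 0 would allow 3 counts, or 0.0564 to 0.0999 CPM depending on the library, for counting error only. *HOXA13* and *HOTTIP* overlap on opposite strands. The deposited tables are named as stranded, and the methods do not state the strand setting of the counting.

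**Figure D1:**
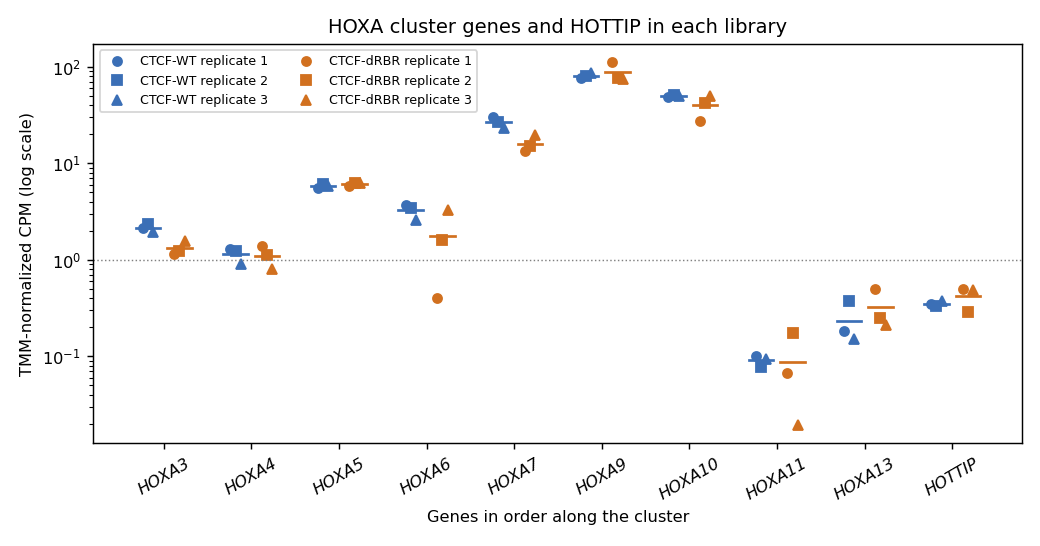
TMM-normalized CPM (log scale) of the 10 genes in order along the cluster, with a point per library, a bar at the mean of each group and a dotted line at 1 CPM. *HOXA3* to *HOXA10* reach 1 CPM in at least 1 library, *HOXA7* and *HOXA3* do not overlap between the groups, and *HOXA11*, *HOXA13* and *HOTTIP* stay under the line.

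How the loss of the RBR related to each gene was asked by comparing CTCF-dRBR with CTCF-WT by limma-voom on the estimated counts, over the 14044 genes with at least 1 CPM in any library. Two-sided p-values were used, with the Benjamini-Hochberg adjustment made over all of these genes. The 7 genes from *HOXA3* to *HOXA10* were tested, and none passed an adjusted p of 0.05, where 0% of all genes tested passed (0 by edgeR's quasi-likelihood test also, and 1619 by DESeq2). The smallest adjusted p of any gene was 0.0959. At an unadjusted p under 0.05, 2 of the 7 were lower in CTCF-dRBR, *HOXA7* and *HOXA3*, and 0 were higher. Over all genes, 12.8% were lower and 12.6% higher at that level, out of 3569 genes in all by limma-voom and 3460 by edgeR. The same 2 genes were the members whose CPM did not overlap between the groups with CTCF-dRBR lower, as was so for 17.5% of all genes tested. The median log2 fold change of the 7 was −0.33, and that of all genes was −0.0076.

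*HOXA7*, the gene on the 3′ side of the interval described above, had the smallest p of the 7. It had 30.1, 26.9 and 23.2 CPM across the CTCF-WT replicates (1, 2 and 3), and 13.4, 14.9 and 19.7 CPM across the CTCF-dRBR replicates (1, 2 and 3). All 3 CTCF-dRBR values lay below all 3 CTCF-WT values (two-sided exact permutation p = 0.1, the smallest possible). The log2 fold change was −0.73 (SE 0.18, 95% interval −1.18 to −0.29, limma-voom adjusted p = 0.131). *HOXA7* kept its direction in all 18 other settings tried, between −0.90 and −0.29. Its adjusted p was under 0.05 in 3 of them, 0.00849 with DESeq2, 0.000244 with voomWithQualityWeights and 0.0142 when the GC trend was removed without CTCF-dRBR replicate 1. Of all genes tested, 11.5%, 68.2% and 23.5% passed in those fits. With all 6 libraries and the GC trend removed, it was −0.35 (SE 0.12, limma-voom adjusted p = 0.117). Its CPM then lay lower in CTCF-dRBR without overlap, as did that of 21.7% of all genes on this scale.

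*HOXA3*, a gene of the 3′ side that patterns the neck and pharyngeal arches, had 2.12, 2.34 and 1.93 CPM in CTCF-WT and 1.14, 1.23 and 1.57 CPM in CTCF-dRBR. The groups again did not overlap (two-sided exact permutation p = 0.1). The log2 fold change was −0.68 (SE 0.20, 95% interval −1.17 to −0.19, limma-voom adjusted p = 0.149). It ranged from −0.85 to −0.07 over the other settings, and passed under 1 of them, voomWithQualityWeights, with an adjusted p of 0.000521, a fit in which 68.2% of all genes passed. With the GC trend removed it was −0.21 and the groups overlapped. Its gene span overlaps *HOXA4*, *HOXA5* and *HOXA6* on the same strand, so some reads could be split among these genes. Within a library the ratio of *HOXA3* to *HOXA7* in CPM was 0.0704 to 0.0868 in CTCF-WT and 0.08 to 0.0848 in CTCF-dRBR. In TPM this ratio spread more, from 0.064 to 0.0818 in CTCF-WT and from 0.0773 to 0.097 in CTCF-dRBR.

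*HOXA6* had the largest estimate and the widest spread. It had 3.69, 3.47 and 2.59 CPM in CTCF-WT and 0.401, 1.61 and 3.26 CPM across the CTCF-dRBR replicates (1, 2 and 3). The low value of CTCF-dRBR replicate 1 came from 12 counts, against 83 and 168 in the other two, and CTCF-dRBR replicate 3 lay within the CTCF-WT range. The log2 fold change was −1.15 (SE 0.63, 95% interval −2.66 to 0.36, limma-voom adjusted p = 0.257). Without CTCF-dRBR replicate 1 it was −0.48, and without CTCF-dRBR replicate 3 it was −1.82 (limma-voom adjusted p = 0.0855). With voomWithQualityWeights it was −1.04 (adjusted p = 0.00184), a fit in which 68.2% of all genes passed. That fit gave weights of 0.0969, 6.19 and 0.472 to CTCF-dRBR replicates 1, 2 and 3. The CTCF-WT replicates had weights of 1.26, 5.65 and 0.496, so replicate 2 of each group weighed most. *HOXA6* had the highest exon GC content of the 7, at 60.7%, and with the GC trend removed its log2 fold change was −0.50.

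*HOXA9*, the gene most often used to mark *KMT2A*-rearranged leukemia, had groups that overlapped. It had 77.3, 80.1 and 85.1 CPM in CTCF-WT and 111.5, 76.7 and 74.1 CPM across the CTCF-dRBR replicates (1, 2 and 3). CTCF-dRBR replicate 1 was above all other libraries, and the other CTCF-dRBR libraries were below all CTCF-WT libraries. The log2 fold change was 0.07 (SE 0.17, 95% interval −0.33 to 0.48, limma-voom adjusted p = 0.764) and it was −0.10 (adjusted p = 0.424) without CTCF-dRBR replicate 1. The interval leaves room for a change of either sign. In TPM the *HOXA9* means were further apart than in CPM, with overlapping groups (exact permutation test, two-sided, p = 0.3). Protein-coding genes held 30.2% of the TPM in CTCF-WT replicate 1 and 63.2% in CTCF-dRBR replicate 1, with the other libraries between, so TPM of a coding gene also moved with that share. Rescaled to the coding genes alone, *HOXA9* had 87.4 ± 8.1 TPM (SD, n = 3) for CTCF-WT against 96.9 ± 18.9 TPM for CTCF-dRBR. On this scale *HOXA7* and *HOXA3* did not overlap, with 25.1 ± 2.57 against 14.8 ± 3.67 TPM for *HOXA7* and 1.88 ± 0.186 against 1.23 ± 0.2 TPM for *HOXA3*. On the deposited TPM both genes overlapped. The share of all genes without overlap is not given for the rescaled TPM. In CPM of the same libraries it was 17.5% with CTCF-dRBR lower.

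*HOXA10*, which like *HOXA9* drives self-renewal when overexpressed, had 49.0, 50.6 and 50.0 CPM in CTCF-WT and 27.7, 42.2 and 49.2 CPM across the CTCF-dRBR replicates (1, 2 and 3). CTCF-dRBR replicate 1 was far below the rest, and CTCF-dRBR replicate 3 lay within the CTCF-WT range. The log2 fold change was −0.33 (SE 0.20, 95% interval −0.82 to 0.15, limma-voom adjusted p = 0.293). It was −0.13 without CTCF-dRBR replicate 1. With the GC trend removed, *HOXA10* was at 43.9 ± 3.55 CPM (SD, n = 3) for CTCF-WT against 44 ± 0.718 CPM for CTCF-dRBR, for a log2 fold change of 0.01 (standard error 0.08). *HOXA9* and *HOXA10* share part of their span. The readthrough gene that joins them (ENSG00000257184) drew 5.3 counts over all 6 libraries, and *HOXA10-AS*, listed as *HOXA-AS4*, lies opposite to both. It had 3.41 ± 0.837 CPM for CTCF-WT against 3.79 ± 0.852 CPM for CTCF-dRBR, for a log2 fold change of 0.13 (limma-voom adjusted p = 0.716).

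*HOXA5*, which restrains growth in several tissues and is often methylated in tumors, had the log2 fold change nearest to 0 of the 7 in the limma-voom fit of all libraries. It had 5.6, 6.14 and 5.79 CPM in CTCF-WT and 5.75, 6.26 and 6.23 CPM in CTCF-dRBR. The log2 fold change was 0.06 (SE 0.13, 95% interval −0.26 to 0.38, limma-voom adjusted p = 0.756). *HOXA4* was near the detection filter, with 41 to 63 counts in a library. It had 1.28, 1.23 and 0.913 CPM in CTCF-WT and 1.4, 1.12 and 0.796 CPM in CTCF-dRBR, for a log2 fold change of −0.09 (SE 0.28, 95% interval −0.77 to 0.59, limma-voom adjusted p = 0.822). The groups overlapped for both genes. With the GC trend removed, *HOXA5* averaged 5.61 ± 0.295 CPM for CTCF-WT against 6.38 ± 0.358 CPM for CTCF-dRBR and no longer overlapped, with CTCF-dRBR higher, as was so for 17.7% of all genes on this scale. In TPM rescaled to the coding genes it went the other way, from 10.5 ± 0.906 to 7.3 ± 2.09 TPM, with overlap.

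**Figure D2:**
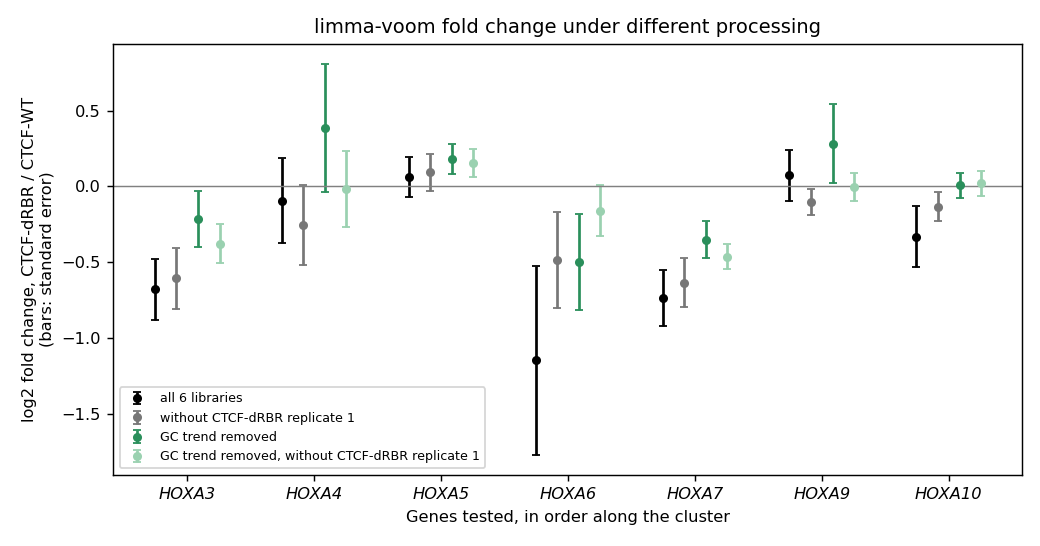
Log2 fold change of CTCF-dRBR against CTCF-WT by limma-voom for the 7 genes tested, in order along the cluster, with standard errors as bars, for all libraries, without CTCF-dRBR replicate 1, with the GC trend removed and with both. *HOXA7* is below 0 in all 4 settings (−0.73, −0.64, −0.35 and −0.46), *HOXA6* moves from −1.15 to −0.16, and *HOXA9* and *HOXA10* are at −0.01 and 0.02 in the last.

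The GC content of the genes was set beside these values because the libraries differed in it. The exons of the 7 genes had between 50.3% (*HOXA5*) and 60.7% (*HOXA6*) GC, all above the median of 46.9% of the genes tested. The 5 with 54.8% or more, *HOXA10*, *HOXA7*, *HOXA3*, *HOXA4* and *HOXA6*, had a log2 fold change under 0, and *HOXA5* and *HOXA9* (52%) did not. The part of GC content in these values was not tested beyond removal of the trend.

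**Figure D3:**
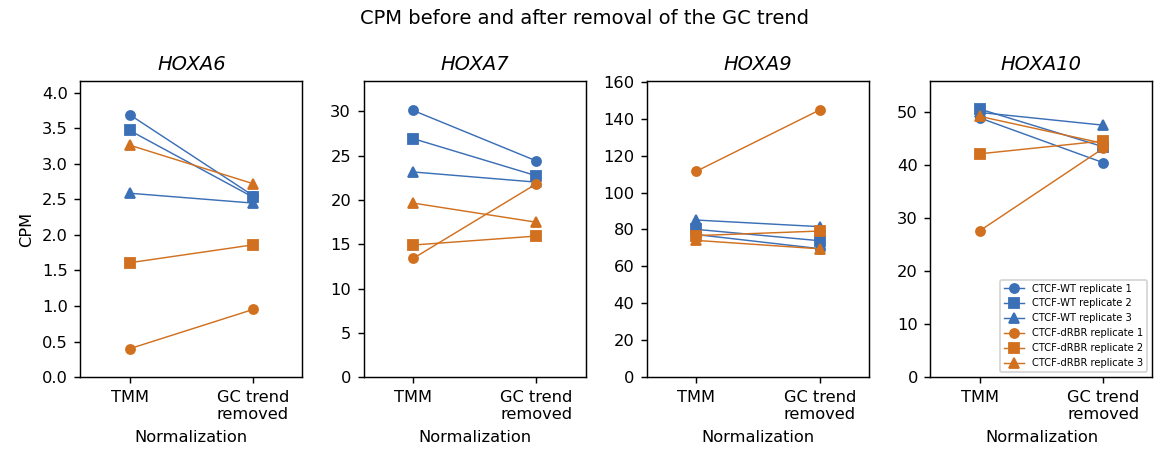
CPM of *HOXA6*, *HOXA7*, *HOXA9* and *HOXA10* in each library, normalized by TMM (left in each panel) and after removal of the GC trend (right), on axes that start at 0. *HOXA10* in CTCF-dRBR replicate 1 goes from 27.7 to 43.2 CPM and joins the others, *HOXA9* in that library goes from 111.5 to 144.7 CPM, and *HOXA7* keeps its groups apart by a margin of 21.8 against 22 CPM.

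The 10 genes together gave 169.7, 171.6 and 170.1 CPM across the CTCF-WT replicates (1, 2 and 3), and 162.4, 144.7 and 155.6 CPM across the CTCF-dRBR replicates (1, 2 and 3). This sum depends on the scaling between libraries. CTCF-dRBR was lower by 16.2 CPM in the mean (a difference of −16.2), but higher by 16.3 on the deposited TPM and by 18.8 CPM over the 7 genes tested with the GC trend removed. Shares and ratios within a library need no such scaling, although the GC trend within a library does not cancel in them. *HOXA9*, *HOXA10*, *HOXA11*, *HOXA13* and *HOTTIP*, the genes on the 5′ side of the interval between *HOXA7* and *HOXA9*, took 74.8%, 76.6% and 79.8% of this sum in CTCF-WT. In CTCF-dRBR they took 86.4%, 82.6% and 79.7%, so that CTCF-dRBR replicate 3 overlapped CTCF-WT replicate 3. The ratio of *HOXA7* to *HOXA9* in CPM was 0.39, 0.336 and 0.272 in CTCF-WT and 0.12, 0.195 and 0.265 in CTCF-dRBR. It did not overlap between the groups in CPM or in TPM, and the nearest libraries were close. The ratio of *HOXA7* to *HOXA10*, also across the interval, did overlap in CPM and in TPM. In CPM it was 0.537 ± 0.076 for CTCF-WT against 0.413 ± 0.0665 for CTCF-dRBR. The ratio of *HOXA5* to *HOXA7*, both on the 3′ side of the interval, was 0.186, 0.228 and 0.25 in CTCF-WT and 0.429, 0.419 and 0.317 in CTCF-dRBR, also without overlap. In TPM the means of this ratio were closer, at 0.42 ± 0.0148 and 0.492 ± 0.0384, without overlap. Both ratios without overlap contain *HOXA7*, whose own CPM did not overlap, so they are not separate results. Of all genes tested, 17.5% were lower and 20% higher in CTCF-dRBR without overlap in CPM. No such share is given for ratios of genes. The ratio of *HOXA10* to *HOXA9* was 0.248 in CTCF-dRBR replicate 1 and between 0.55 and 0.665 in the other 5 libraries. No p was computed for these sums and ratios, since the genes were chosen with earlier results known.

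**Figure D4:**
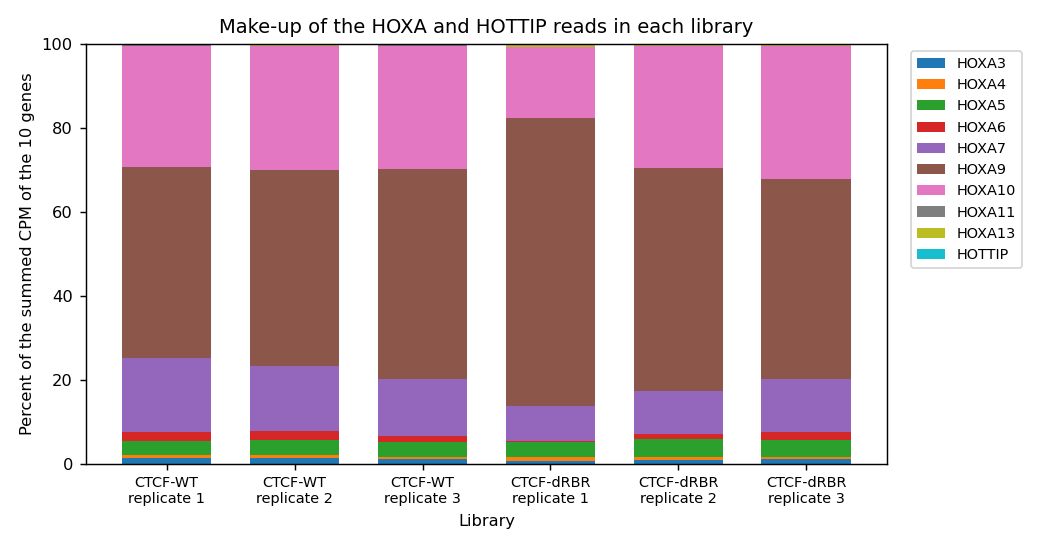
Share of each gene in the summed CPM of the 10 genes, stacked to 100% per library. *HOXA9* takes 45.5% to 50% in CTCF-WT and 68.7%, 53% and 47.6% in CTCF-dRBR replicates 1, 2 and 3, and *HOXA7* takes 13.6% to 17.8% in CTCF-WT and 8.26% to 12.6% in CTCF-dRBR.

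The other genes of the locus were mostly weak. Of 10 antisense, readthrough and neighbor genes examined, 4 were tested and 0 passed an adjusted p of 0.05 or an unadjusted p of 0.05. *HOXA2* was at 0.315 ± 0.0835 CPM (SD, n = 3) for CTCF-WT against 0.332 ± 0.101 CPM for CTCF-dRBR. The myeloid lncRNA *HOTAIRM1* had 1.1, 1.01 and 0.906 CPM in the CTCF-WT replicates and 1.34, 0.775 and 0.776 CPM in the CTCF-dRBR replicates. *HOXA-AS3*, on the strand opposite to the genes from *HOXA3* to *HOXA7*, had 2.36 ± 0.424 and 2.26 ± 0.256 CPM, a log2 fold change of −0.03 (limma-voom adjusted p = 0.925). *HOXA-AS2* and *HOXA11-AS* had at most 4 counts in a library, and *EVX1*, the homeobox gene beyond *HOTTIP*, and *EVX1-AS* had 0 counts in all 6. *SKAP2*, the adaptor gene that flanks the cluster on the other side, had 8.69 ± 0.861 and 11.5 ± 3.23 CPM, a log2 fold change of 0.39 (limma-voom adjusted p = 0.303).

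Genes that act with HOXA proteins or on the cluster were read from lists chosen with earlier results of these data known. Of 9 TALE cofactors, 6 were tested and 0 passed an adjusted p of 0.05. At an unadjusted p under 0.05, 1 was lower (*PBX2*) and 1 higher (*PBX3*), where 12.8% of all genes tested were lower and 12.6% higher. *MEIS1* was the most abundant of them, with 204, 214 and 219 CPM in CTCF-WT and 267, 237 and 230.0 CPM in CTCF-dRBR. Its groups did not overlap, with CTCF-dRBR higher as for 20% of all genes tested, and its log2 fold change was 0.20 (SE 0.09, limma-voom adjusted p = 0.224). *PBX3*, the PBX protein that partners *HOXA9* in leukemia, had 71, 75.5 and 76 CPM in CTCF-WT and 103.6, 88.7 and 83.8 CPM in CTCF-dRBR, for a log2 fold change of 0.30 (adjusted p = 0.177). *PBX2* went from 32.4 ± 6.84 to 21.1 ± 2.95 CPM (log2 fold change −0.59, adjusted p = 0.164).

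Of 9 genes of the KMT2A complex and fusion, all were tested and 0 passed. At an unadjusted p under 0.05, 2 were lower and 0 higher, where 12.8% of all genes tested were lower and 12.6% higher. Those 2 were *WDR5*, at 70.1 ± 1.84 CPM (SD, n = 3) for CTCF-WT against 47.3 ± 6.99 CPM for CTCF-dRBR (log2 fold change −0.56, limma-voom adjusted p = 0.116), and *ASH2L*, at 119 ± 10.1 and 69 ± 21.3 CPM (−0.85, adjusted p = 0.126). Both encode core subunits shared by KMT2-type methyltransferases. *KMT2A* itself was at 149 ± 9.44 and 159 ± 3.17 CPM (log2 fold change 0.09, adjusted p = 0.466), and reads of the fusion and of the intact allele were not separated. *MEN1*, whose product ties KMT2A to HOXA promoters, was at 18.3 ± 2.54 and 14.7 ± 7.14 CPM (−0.39, adjusted p = 0.464). All 4 genes found of Polycomb repressive complex 2, which silences HOX genes, were tested, with 0 past an unadjusted p of 0.05 and a median log2 fold change of 0.13. Of 8 genes of CTCF and cohesin, 1 was lower at an unadjusted p under 0.05, *SMC1A*, and 0 were higher, beside the same shares of all genes. *CTCF*, for which endogenous and transgene reads were not separated, was at 223 ± 22 CPM for CTCF-WT against 263 ± 10.4 CPM for CTCF-dRBR (log2 fold change 0.24, limma-voom adjusted p = 0.202). Its groups did not overlap, with CTCF-dRBR higher as for 20% of all genes tested.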

How the data were processed

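Both groups of 3 libraries were made from total RNA. The authors removed ribosomal RNA, trimmed the reads with Trim Galore (0.6.3), aligned them to GRCh37 (hg19) with STAR (2.7.9a) and quantified Gencode genes with RSEM (1.3.1). The methods of the study describe paired-end reads and the labels single-end reads. The deposited estimated counts are RSEM expected counts per gene without normalization. The deposited TPM were scaled by the authors over all genes, small RNAs included. A total of 92 ERCC sequences had 0 counts and were left out.

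From the estimated counts, the 14044 of 57820 genes that reached 1 CPM in any library were kept. TMM factors from edgeR (4.0.16) and limma-voom (limma 3.58.1, R 4.3.3) without covariates were applied as in the methods of the study, with Benjamini-Hochberg adjustment over all genes tested. For single genes the mean CPM of the groups was also compared by exact permutation. Rounded counts were used for edgeR's quasi-likelihood test and DESeq2 (1.42.0). The other settings were voomWithQualityWeights, other normalizations and filters, limma-trend on log2 TPM with 1 or 0.1 added, the replicate block, each library left out, and GC trend removal. For the last, each library's deviation in log2 CPM (prior count 1) was fitted by loess (span 0.5, degree 2) over exon GC content, known for 97.2% of the genes tested, and subtracted. Most of the fits of all 6 libraries were also run on simulated counts with known changes. The simulation held no GC trend and no library with a profile apart from the rest, so it does not cover these features. Not simulated were limma-trend on TPM, the fit without a filter and the fits with a library left out.

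All 10 genes were named, along with further genes set by list. The genes, lists and tests were chosen with earlier results of these data known. Positions and exon GC content came from a Gencode annotation on GRCh37, matched by identifier. It was a later release than the one the authors counted on, so spans and exons may differ from the gene models counted. Sequences came from the GRCh37 genome, and promoter windows from RefSeq, found on GRCh37 by exact match. PBX2, ASH2L, WDR5 and SMC1A were named after their values were seen. Some genes of the lists are not reported here and were left out of the list counts and sums.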

Additional observations from a re-analysis of the deposited data

How the results depend on the processing

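GC trend removal without CTCF-dRBR replicate 1, and GC trend removal for the summed CPM and the percent taken from it, were added after seeing the data. For every change given here the cause was not tested. The count of 0 genes past an adjusted p of 0.05 moved to 1619 with DESeq2, 9583 with voomWithQualityWeights, 833 and 760 with limma-trend on log2 TPM with 1 or 0.1 added, 1258 with the GC trend removed and 3139 with the GC trend removed without CTCF-dRBR replicate 1. Leaving out 1 library gave 0 to 535 genes, the latter without CTCF-dRBR replicate 1. Of the 7 HOXA genes tested, 1 passed with DESeq2 (*HOXA7*), where 11.5% of all genes passed. With voomWithQualityWeights 4 passed (*HOXA3*, *HOXA6*, *HOXA7* and *HOXA10*), where 68.2% of all genes passed. With the GC trend removed without CTCF-dRBR replicate 1, 1 passed (*HOXA7*), where 23.5% of all genes passed. In every other setting 0 of the 7 passed, also with any 1 library left out. *HOXA3*, *HOXA6* and *HOXA7* kept their sign in all 18 settings. *HOXA4* changed sign with limma-trend (0.24 with 1 added, 0.48 with 0.1), with the GC trend removed (0.39) and without CTCF-dRBR replicate 3, and was between −0.255 and 0.135 with 1 library left out. *HOXA5* changed sign without a filter on low counts (−0.0193) and with limma-trend (−0.0789 and −0.0941). *HOXA9* changed sign with voomWithQualityWeights (−0.0561), without a filter (−0.0135), without CTCF-dRBR replicate 1 and when the GC trend was removed without that library (−0.00653), and was between −0.104 and 0.181 with 1 library left out. *HOXA10* changed sign with limma-trend (0.0685 and 0.0718), with the GC trend removed (0.00796) and likewise without CTCF-dRBR replicate 1 (0.0209). The median of all genes was 0.40 and 0.54 with limma-trend on log2 TPM with 1 or 0.1 added, and 0.19 without a filter. The summed CPM of the 10 genes, lower by a mean of 16.2 in CTCF-dRBR (−16.2), was higher by 16.3 on the deposited TPM and by 18.8 with the GC trend removed over the genes tested, and was between −20.3 and −11.5 with 1 library left out. The percent from the genes 5′ of the interval differed by 5.86 points, and by 4.12 to 7.45 points with 1 library left out. It differed by 7.82 points on the deposited TPM and by 4.55 points with the GC trend removed over the genes tested.

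Whether the replicate numbers pair the libraries could not be decided. The correlations of same-numbered deviations from the group means were −0.352, 0.11 and −0.479. Libraries with different numbers were not compared, and CTCF-dRBR replicate 1 stood apart. With the replicate block, 0 genes passed, 1423 had an unadjusted p under 0.05, and the log2 fold change of *HOXA7* was −0.73 (adjusted p = 0.419).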

Other observations

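Outside the HOXA cluster few HOX genes were expressed. Of 28 HOX genes of the B, C and D clusters found in the tables, 2 were tested, *HOXB7* and *HOXC4*. *HOXB7* averaged 4.55 ± 0.168 CPM (SD, n = 3) for CTCF-WT against 4.56 ± 0.856 CPM for CTCF-dRBR, and the entry of *HOXC4* that was tested averaged 3.26 ± 0.292 against 3.28 ± 0.267 CPM, with log2 fold changes of −0.03 and 0.02 (adjusted p = 0.923 and 0.945 from limma-voom).

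The genes tested whose log2 CPM over the 6 libraries was most like that of *HOXA9* were *RPL26L1*, *PLAA* and *C11orf57*, with a Pearson correlation of 0.999, 0.998 and 0.998. All 3 were highest in CTCF-dRBR replicate 1. The points share the libraries, their depth and their GC trends, so the likeness is a description. Among the members, *HOXA3* and *HOXA7* had a correlation of 0.973 over the 6 libraries, *HOXA6* and *HOXA10* of 0.974, and *HOXA9* and *HOXA10* of −0.88. CTCF-dRBR replicate 1 had the highest CPM of *HOXA9* (111.5) and the lowest of *HOXA10* (27.7) and *HOXA6* (0.401). The correlations therefore lean on that library, and values without it are not given.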
